A study of Homo sapiens with 6 samples.

Results

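The miR-423 locus was represented in the miRNA table by 4 of 1582 rows, namely hsa-miR-423-5p and hsa-miR-423-3p, the arms of miR-423, and hsa-miR-3184-5p and hsa-miR-3184-3p, the arms of a miRNA annotated on the opposite strand. The rows were taken by name, and the locus was chosen by its read counts in these same 6 libraries, which had shown that the arm ratio of miR-423 differed between the groups and that the miR-3184 rows repeated the miR-423 rows. The values of the 4 rows in the contrast of the groups, and their near-identity, are therefore given as a description, with no test. Small RNA was sequenced from MDA-MB-231, a human triple-negative breast cancer cell line, in 3 control libraries of non-transfected cells and 3 libraries of cells carrying RARαS77A, a retinoic acid receptor alpha whose phosphorylated serine is replaced by alanine. The control cells carried neither an empty vector nor the wild-type receptor, so the mutant receptor and its delivery cannot be told apart. The sample labels call the cells transfected, the series' description speaks of lentiviral delivery, and the study's methods for these libraries name no vector. Neither the labels nor the study's methods state that the replicates were separate cultures, so the spread between libraries may be technical.

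A miRNA hairpin is trimmed by Drosha in the nucleus and by Dicer in the cytoplasm to a short duplex with one strand from each arm. An Argonaute protein keeps one strand as the guide and the other is usually degraded, so the counts of the 5p and 3p arms of one hairpin show which strand was retained, along with any difference in how well each is captured in a library. Bases 2 to 8 of the mature miRNA, the seed, pair with target mRNAs, and the arms of one hairpin therefore have different targets. miR-423 is expressed in many tissues, miR-423-5p has been studied in plasma in heart failure, and miR-423-3p is among the small RNAs used as references in qRT-PCR.

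The 4 mature sequences are shown because they explain which rows can hold the same reads and which share a seed. They are the RefSeq entries on GRCh38.p14, 5′ to 3′, with the seed in capitals.
hsa-miR-423-5p: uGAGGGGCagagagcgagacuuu
hsa-miR-3184-3p: aAAGUCUCgcucucugccccuca
hsa-miR-423-3p: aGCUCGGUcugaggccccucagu
hsa-miR-3184-5p: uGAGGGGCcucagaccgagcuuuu

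miR-423-5p and miR-3184-3p are annotated at the same place, chr17:30117095-30117117, on the plus and the minus strand, and are reverse complements over all 23 bases. miR-423-3p, at chr17:30117131-30117153 on the plus strand, and miR-3184-5p, at chr17:30117128-30117151 on the minus strand, share 21 positions, with 2 bases of miR-423-3p and 3 bases of miR-3184-5p lying outside the shared stretch. miR-423-5p and miR-3184-5p have the seed GAGGGGC in common, and none of the other mature names among 2370 in RefSeq has it. The seeds of miR-423-3p and miR-3184-3p were each held by no other mature name. Sharing a seed and sharing reads thus crossed over at this locus, since miR-3184-5p has the seed of miR-423-5p but lies opposite miR-423-3p.

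The MIR423 hairpin spans 94 bases of the plus strand of chromosome 17 (chr17:30117079-30117172) and the MIR3184 hairpin 75 bases of the minus strand inside it (chr17:30117086-30117160). Both lie within NSRP1, which encodes a nuclear speckle splicing regulator and is transcribed from the plus strand (chr17:30115521-30186475, GENCODE release 29). Of its 17 annotated transcripts, 11 hold the miR-423 hairpin in an intron, 10 of them in the first intron. In 1 transcript the hairpin lies wholly in an untranslated part of an exon, in 2 it overlaps an exon in part, and 3 transcripts do not reach it. The annotated minus strand also holds AC104984.2 (chr17:30090366-30117497) and AC104984.5 (chr17:30117079-30117172), so transcription of either strand over the hairpin is annotated. For the alignment itself, neither the labels nor the study's methods name a build.

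Library totals were 10804803, 11338580 and 9019266 counts in the control libraries and 9695502, 10267305 and 10013176 in the RARαS77A libraries. The 4 markers of MDA-MB-231 (miR-21-5p, miR-100-5p, miR-221-3p and miR-222-3p) made up between 607184 and 706284 counts per 1000000 of the total, and the 3 epithelial markers between 27.4 and 41.5. miR-21-5p was the largest part of the MDA-MB-231 sum, with a mean of 5007598.5 counts. miR-100-5p had 1514953, miR-221-3p 95592 and miR-222-3p 94768. The control libraries were split by 5 pluripotent stem cell markers of the miR-302 and miR-367 cluster, which summed to 2 and 1 counts in control replicates 1 and 2, with 4 of 5 at 0 in each, against 2973 in control replicate 3 and 2162 to 2219 in the RARαS77A libraries. Control replicate 1 also held 986 counts of 3 muscle markers against 30 to 49 elsewhere, and control replicate 2 held 870 counts of the endocrine miR-375-3p against 19 to 54. The liver marker miR-122-5p had 99 counts in control replicate 2 and 355 to 527 elsewhere, and the 4 blood markers summed to 113 to 295, with miR-223-3p at 0 in control replicate 3 and in the RARαS77A libraries. The part of these markers in the results below was not tested. The arm ratio of miR-423 in control replicate 3 lay between those of the other control libraries, which is the value of a single library.

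The miR-3184 rows repeated the miR-423 rows almost read for read. hsa-miR-423-5p had 7159, 10159 and 7876 counts in the control libraries and 10673, 12501 and 11384 in the RARαS77A libraries. hsa-miR-3184-3p had 7157, 10159 and 7875 counts in the control and 10668, 12500 and 11384 in the RARαS77A libraries. The rows were equal in 2 libraries and miR-3184-3p was the lower by 1 to 5 counts in the others, a largest difference of 0.0468% of the miR-423-5p count.

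The second pair was nearly as close. hsa-miR-423-3p had 39663, 44368 and 36674 counts in the control libraries and 16591, 24197 and 21742 in the RARαS77A libraries. hsa-miR-3184-5p had 39551, 44230 and 36518 counts in the control and 16488, 24053 and 21617 in the RARαS77A libraries. miR-3184-5p was lower in every library, by 103 to 156 counts or 0.282% to 0.621%. The pair annotated at identical positions differed by at most 5 counts. The pair with staggered ends, which also had the higher counts, differed by at least 103. The cause was not tested. The 4 rows together held 0.561% to 0.986% of a library's counts.

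**Figure D1:**
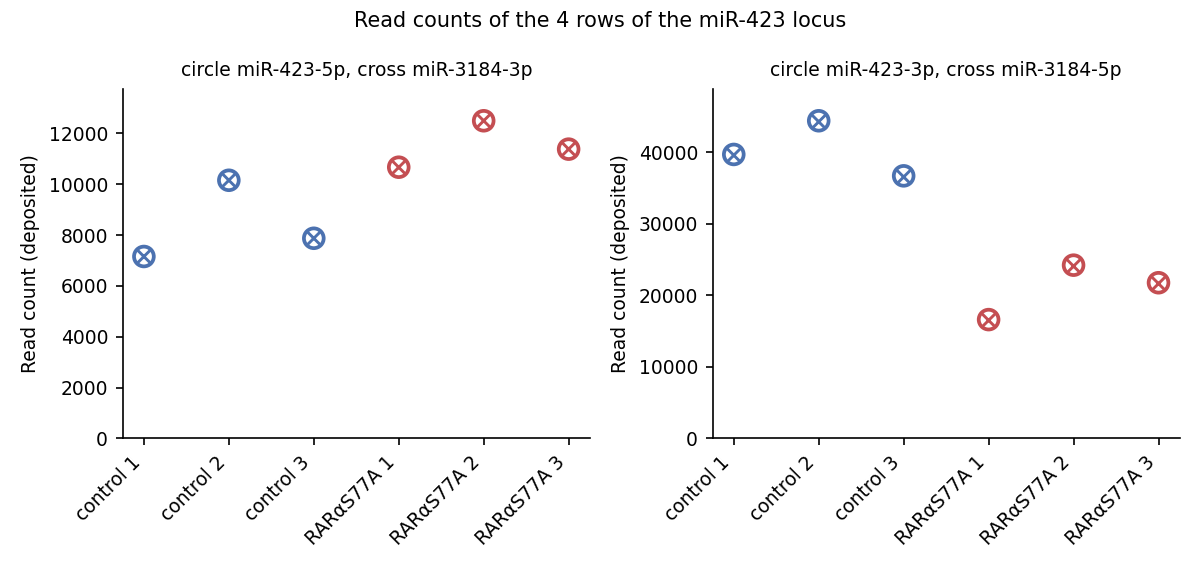
Deposited read counts (vertical axes, starting at 0) of the 4 rows in each of the 3 control libraries (blue) and 3 RARαS77A libraries (red). Circles show the miR-423 arm and crosses the miR-3184 arm opposite it, and each cross lies inside its circle, the largest difference being 0.621% of the miR-423 count.

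Near-identical rows were not limited to this locus. Among 499 rows with a mean count of at least 10, 14 pairs differed by at most 5% of the larger count in every library, and RefSeq held both sequences for 13 of them. In 12 of these 13 the sequences matched as reverse complements over at least 16 bases, and the exception was miR-550a-5p with miR-550a-3-5p. The 3 most abundant antisense pairs outside the miR-423 locus were miR-24-3p with miR-3074-5p (largest difference 0.898%), miR-103a-3p with miR-103b (1.93%) and miR-7-5p with miR-3529-3p (2.67%). Of 21 pairs of rows with a reverse-complement match of at least 16 bases, 12 were near-identical by this rule. The other 9 include matches to related sequences, such as miR-103b with miR-107. They also include low-count pairs that were close in mean count, such as miR-219a-2-3p with miR-219b-5p (36.2 and 36.3 counts). For miR-24-1-5p with miR-3074-3p, a match of 19 bases, the mean counts were 139 and 45.5. An antisense match thus did not always go with like counts. These pairs were named here after their values were seen. No source names the strand setting of the counting or the rule for a read that matched several miRNAs. The reads of a miR-423 arm and of the miR-3184 arm opposite it cannot be told apart in these counts, and the miR-3184 values below carry no information of their own.

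The arm ratio of miR-423 compares 2 rows of one library and does not depend on how libraries are scaled to each other. The count of miR-423-5p divided by that of miR-423-3p was 0.181, 0.229 and 0.215 in the control libraries, a mean of 0.208 ± 0.0249 (SD, n = 3). In the RARαS77A libraries it was 0.643, 0.517 and 0.524, a mean of 0.561 ± 0.0712 (SD, n = 3). The 3p arm was therefore the more abundant in all 6 libraries, and the 5p arm made up a larger part in every RARαS77A library than in any control library.

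As a share of both arms, miR-423-5p was 15.3% of the counts in control replicate 1 (95% Wilson interval 14.97% to 15.62%), 18.6% in replicate 2 (18.3% to 19.0%) and 17.7% in replicate 3 (17.3% to 18.0%). It was 39.1% in RARαS77A replicate 1 (38.6% to 39.7%), 34.1% in replicate 2 (33.6% to 34.6%) and 34.4% in replicate 3 (33.9% to 34.9%). These intervals cover counting error only, since reads were not counted as molecules. The intervals of RARαS77A replicates 2 and 3 overlapped, whereas those of the control replicates and of RARαS77A replicate 1 were apart from the rest, so the spread between libraries rather than depth sets the precision. The mean share was 17.2% ± 1.72 in the control and 35.9% ± 2.85 in the RARαS77A libraries (SD, n = 3).

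On the log2 scale the ratio was -2.27 ± 0.178 in the control and -0.84 ± 0.177 in the RARαS77A libraries (SD, n = 3), a difference of 1.43 (SE 0.18) or 2.70-fold. The miR-3184 rows gave the same change seen from the other strand, with a ratio of 3p to 5p of 0.209 ± 0.0251 in the control and 0.564 ± 0.0716 in the RARαS77A libraries. A term for the split of the control libraries marked control replicates 1 and 2. That fit compares the RARαS77A libraries with control replicate 3 alone and gave a difference of 1.38. With any single library left out the difference was between 1.33 and 1.5.

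The levels of the arms show how the ratio moved. CPM here is the count per 1000000 after trimmed mean of M-values (TMM) scaling, and a call is an adjusted p under 0.05 in edgeR's quasi-likelihood test over the 506 miRNAs that passed a low-count filter, as all 4 rows did. Measured per amount of RNA, fewer cells holding a miRNA and less of it per cell cannot be told apart. hsa-miR-423-5p was at 574, 691 and 720 CPM in the control libraries (661 ± 76.96, SD, n = 3) and at 1357, 1489 and 1370 CPM in the RARαS77A libraries (1405 ± 72.2), a log2 fold change of 1.09 (SE 0.11) or 2.13-fold. All RARαS77A libraries lay above all control libraries, and the row was among those called higher, which were 23.3% of the 506 tested. The call of a row chosen on this contrast shows nothing further, and neither does the lack of overlap, which 58.1% of the tested rows had.

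Under TMM scaling the 3p arm moved less, and in the other direction. hsa-miR-423-3p was at 3181, 3016 and 3350 CPM in the control libraries (3182 ± 167, SD, n = 3) and at 2110, 2881 and 2617 CPM in the RARαS77A libraries (2536 ± 392), a log2 fold change of -0.33 (SE 0.12). The groups did not overlap, with 2881 CPM in RARαS77A replicate 2 nearest to 3016 CPM in control replicate 2, and the row was not among the 21.1% called lower. The log2 fold change of the median tested miRNA was 0.06, and relative to it miR-423-5p stood at 1.02 and miR-423-3p at -0.39. The miR-3184 rows had the values of their partners, 1.09 (SE 0.11) for miR-3184-3p and -0.33 (SE 0.12) for miR-3184-5p.

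Scaling bears on the single arms. Per 1000000 of the library total, miR-423-3p was at 3671, 3913 and 4066 in the control libraries. In the RARαS77A libraries it was at 1711, 2357 and 2171, and its log2 fold change was -0.90. That of miR-423-5p was 0.51 under the same scaling, so there the 3p arm moved more than the 5p arm. Which arm moved more thus depended on the scaling. miR-423-3p was among 213 of the 506 tested miRNAs called lower with library totals, where the median log2 fold change was -0.51. Relative to that median miR-423-3p stood at -0.39, as it did under TMM. Across 16 alternative settings the log2 fold change ranged from 0.51 to 1.29 for miR-423-5p and from -0.90 to -0.12 for miR-423-3p, which was called lower in 9 of them and not in the other 7. These settings share the libraries on which the locus was chosen, so the ranges and calls describe the effect of processing and are no support. With a term for the split of the control libraries, which compares with control replicate 3 alone, miR-423-5p had 0.97 and miR-423-3p -0.40. By rank in the library, miR-423-5p moved from place 54 to 61 in the control to place 40 to 42 in the RARαS77A libraries, while miR-423-3p was at place 27 to 29 and then 31 to 33.

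**Figure D2:**
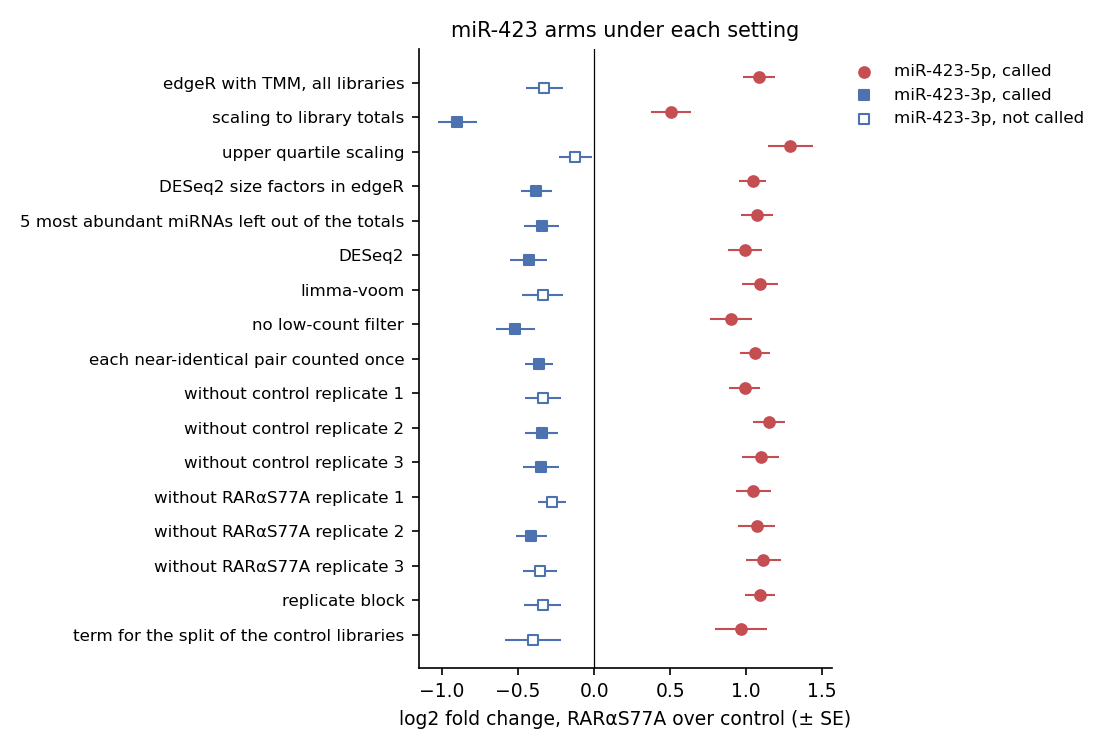
Log2 fold change of RARαS77A over control (horizontal axis, bars give the SE) of miR-423-5p (circles) and miR-423-3p (squares) under the main setting, at the top, and 16 alternatives. Filled symbols were called at an adjusted p under 0.05. The setting with a term for the split of the control libraries compares with control replicate 3 alone. The values lie between 0.51 and 1.29 for the 5p arm and between -0.90 and -0.12 for the 3p arm.

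The sum of the arms of miR-423 differed little between the groups after TMM scaling. It was 3755, 3706 and 4070 CPM in the control libraries (3844 ± 197, SD, n = 3) and 3468, 4370 and 3988 CPM in the RARαS77A libraries (3942 ± 453), and the groups overlapped. Per 1000000 of the library total the sum was 4333, 4809 and 4939 in the control and 2812, 3574 and 3308 in the RARαS77A libraries, without overlap, so whether the locus as a whole was lower depended on the scaling. Adding rows by seed gave another picture than the 5p arm alone. The 2 rows with the seed GAGGGGC, miR-423-5p and miR-3184-5p, summed to 3833 ± 194 CPM in the control and 3927 ± 451 CPM in the RARαS77A libraries. Their ratio was 1.02, where miR-423-5p alone had 2.13. The row of miR-3184-5p nearly equals that of miR-423-3p, so this sum is almost that of the miR-423 arms and tells nothing more about the seed.

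The arm ratios of other hairpins give the background. Of 428 miRNAs with rows for both arms, 117 had a mean count of at least 10 in each, the median change of their log2 ratio was 0.17 toward 5p, and the quartiles were -0.48 and 0.90. A change toward 5p was called by limma in 29.9% of the 117, and in 34.2% every RARαS77A library lay above every control library. miR-423 was in place 15 by the size of its change toward 5p, between miR-877 at 1.5 (SE 0.22) and miR-200a at 1.42 (SE 0.24), and neither neighbour differed from it by more than its SE. The within-group SD of its log2 ratio was 0.177, against a median of 0.309 over all pairs. Its change was thus not outlying in size.

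It lay against the more common direction for hairpins with a more abundant 3p arm. The 14 pairs with larger changes all had more 5p than 3p counts, averaged over the 6 libraries. Of the 44 pairs with more 3p than 5p counts, 13 had a higher ratio in RARαS77A and 13.6% were called toward 5p, with a median change of -0.29. This grouping used the RARαS77A counts as well as the control counts. A pair that moved far enough toward 5p could leave the group, so its share and median are partly fixed by the grouping. miR-423 had the highest value of these 44, at 1.43 against 1.42 for miR-200a, which is within the SE of either, and miR-200a was the higher of the pair without control replicate 3 (1.63 against 1.46) and without RARαS77A replicate 1 (1.46 against 1.33). The other 73 pairs, miR-3184 included, had a median change of 0.41. Across the 117 pairs, 31.6% moved toward their less abundant arm, a share that the same grouping partly fixes. miR-423 shared this direction with 36 others, miR-3184 among them. In 5 pairs the more abundant arm changed between the group means, and miR-423 was not one of them.

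**Figure D3:**
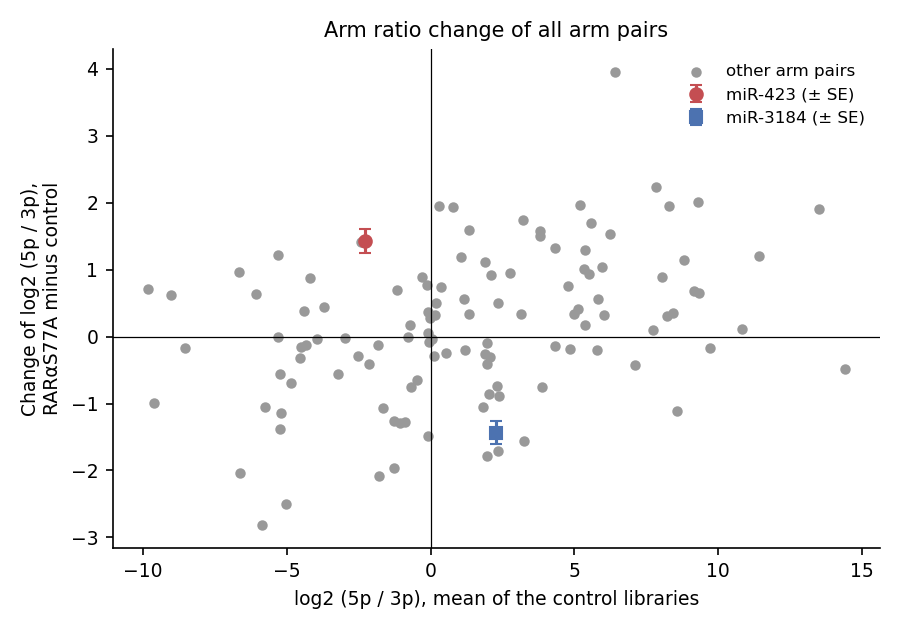
Change of the log2 ratio of 5p to 3p counts (vertical axis, RARαS77A minus control) against the mean log2 ratio of the control libraries (horizontal axis) for 117 hairpins, with the SE for miR-423 and miR-3184. miR-423 lies at 1.43 on the left, where the 3p arm is the more abundant, and miR-3184 lies at the mirrored position because its rows repeat the same counts.

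Other small RNAs used as references in qRT-PCR give the locus a scale. Of 6 such miRNAs 1 was called higher, 2 were called lower and 3 were not called, close to the background of 23.3% higher and 21.1% lower, with a median log2 fold change of -0.15 against 0.06 of all tested. miR-425-5p rose by 0.94 (SE 0.10, edgeR adjusted p = 0.000334), miR-93-5p fell by 1.06 (SE 0.12, edgeR adjusted p = 0.000443) and miR-16-5p fell by 0.68 (SE 0.10, edgeR adjusted p = 0.00171). The values were -0.09 for miR-103a-3p (edgeR adjusted p = 0.61), -0.09 for miR-191-5p (edgeR adjusted p = 0.578) and -0.21 for let-7a-5p (edgeR adjusted p = 0.352). The list was drawn up with earlier results of these data known, so its calls and p-values are a description and no support. The uncalled values depended on the scaling. Scaled to library totals, miR-103a-3p had -0.66, miR-191-5p -0.66 and let-7a-5p -0.78, all called lower (edgeR adjusted p = 0.00478, 0.00386 and 0.00795). They were among 213 of the 506 tested miRNAs called lower under that scaling, where the median log2 fold change was -0.51. Relative to that median they stood at -0.16, -0.15 and -0.27. Under upper quartile scaling miR-103a-3p and miR-191-5p both had 0.12, not called.

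Set against the mean log2 CPM of these 6 miRNAs, as a qRT-PCR would do, miR-423-5p stood at -2.59 ± 0.172 in the control and -1.30 ± 0.0887 in the RARαS77A libraries (SD, n = 3), a difference of 1.30. miR-423-3p stood at -0.32 ± 0.0656 and -0.46 ± 0.179, a difference of -0.14 that was within the spread of the RARαS77A libraries. The 3p arm thus stood within 1 log2 unit of this mean in both groups, and the 5p arm stood further below it in both. The mean was not a fixed scale, since 1 of the 6 references was called higher and 2 were called lower. Under TMM alone the log2 fold changes were 1.09 for miR-423-5p and -0.33 for miR-423-3p. The single reference miRNAs lay far apart, from 1116 CPM for miR-16-5p to 17151 CPM for let-7a-5p in the control mean. In the RARαS77A libraries miR-423-5p, at 1405 CPM, was above miR-16-5p at 696 CPM.

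Rows with a like pattern were sought among 504 tested miRNAs by the root mean square difference of centred log2 CPM over the 6 libraries. Nearest to miR-423-5p were miR-218-5p (0.0875), miR-532-5p (0.0969) and miR-450a-5p (0.111), with log2 fold changes of 1.05, 1.12 and 1.12, all called higher. Nearest to miR-423-3p were miR-18a-5p (0.0426), miR-221-3p (0.0528) and miR-98-5p (0.0619), with log2 fold changes of -0.38, -0.32 and -0.32, none of them called. These rows were chosen by likeness over the same libraries, so their fold changes and calls follow from the choice and show nothing further. The 3 rows near each arm were different miRNAs, and those of the 3p arm include miR-221-3p, a marker of this cell line.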

How the data were processed

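Per the labels, small RNA libraries were made from total RNA with the NEBNext small RNA kit and sequenced on an Illumina HiSeq instrument, and the submitters' processing notes name Bowtie with no version. No label or method used here names the genome build, the strand setting or the handling of reads matching several miRNAs. As deposited by the authors, the data were 1 table of read counts per mature miRNA with TPM values beside them, which equalled the count per 1000000 of the library total (largest difference 4.74e-05) and were not used in tests.

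The 4 rows and every list were chosen with earlier results of these data known. Counts were compared with edgeR 4.0.16 in R 4.3.3 (TMM, filterByExpr with a minimum count of 10, quasi-likelihood test, Benjamini-Hochberg over 506 miRNAs). Arm ratios were compared with limma 3.58.1 on log2 ratios of counts plus 0.5, for arms with mean counts of at least 10. The scripts were tested on simulated data. Sequences came from RefSeq (1342 of 1582 rows matched) and gene positions from GENCODE release 29. Other rows were named by likeness to an arm, by membership of the reference list, as the 3 most abundant near-identical antisense pairs, as neighbours of miR-423 in the order of arm ratio change, or as markers of a cell type. The exception among the near-identical pairs and the antisense pairs outside that rule were named after their values were seen. Alternatives covered scaling, filters, DESeq2 1.42.0, limma-voom, a replicate block, a term for the split of the control libraries and each library left out.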

Additional observations from a re-analysis of the deposited data

How the results depend on the processing

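miR-423-5p ranged from 0.51 to 1.29 over 16 alternatives and the log2 arm ratio change of miR-423 from 1.33 to 1.5 over 12, all on the libraries that chose the locus. miR-423-3p and miR-3184-5p, not called in the main setting, were called lower with library totals (-0.90 for both), DESeq2 size factors in edgeR (-0.38 for both), totals without the 5 most abundant miRNAs (-0.35 for both), DESeq2 (-0.43 for both) and no low-count filter (-0.52 for both), and miR-423-3p also with each near-identical pair counted once (-0.36). Without single libraries miR-423-3p ranged from -0.41 to -0.28, called without control replicate 2, control replicate 3 or RARαS77A replicate 2. miR-3184-5p ranged from -0.42 to -0.28 and was called without any of these or RARαS77A replicate 3. The cause was not tested. miR-103a-3p turned to 0.12 under upper quartile scaling and ranged from -0.20 to 0.0163 without single libraries, the highest value being without RARαS77A replicate 3. miR-191-5p turned to 0.12 under upper quartile scaling. With library totals these rows and let-7a-5p were called lower (-0.66, -0.66 and -0.78), where the median tested row was at -0.51.

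Counts of calls moved with scaling and with the low-count filter. With library totals 51 miRNAs were called higher and 213 lower, where TMM gave 118 and 107, and the median change over the tested rows, on the log2 scale, went from 0.06 to -0.51, or to 0.27 under upper quartile scaling. Relative to these medians miR-423-3p stayed at -0.39 with library totals. With no filter 162 were called lower. A term for the split of the control libraries gave 76 higher and 55 lower, and 11 arm pairs toward 5p. Without single libraries 101 to 125 were called higher and 92 to 116 lower, and 28 to 36 arm pairs toward 5p. Near-identical pairs fell from 14 to 9 at a tolerance of 1% or a mean count of at least 100.

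Replicate numbers were shared by the groups. In their deviations from the group means, same-numbered libraries correlated by only 0.0444, 0.09 and 0.0284. Because these values were low, the numbers were not taken to pair the libraries. Yet 4 of 6 libraries correlated best with their own number, so a pairing is not excluded. With a replicate block miR-423-5p had 1.09, miR-423-3p -0.34 (not called) and the arm ratio 1.43, and 107 miRNAs were called higher and 94 lower. With 3 libraries per group and a control split by stem cell markers, small differences such as that of the 3p arm remain uncertain.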
